A study of Mus musculus with 8 samples.

Results

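The comparison described here sets the 6 arrays of mice injected with MPTP against the 2 arrays of saline-injected control mice, and asks what all 6 treated arrays have in common. MPTP (1-methyl-4-phenyl-1,2,3,6-tetrahydropyridine) is a pro-toxin given to rodents to model parkinsonism. Male C57BL/6 mice, 6 weeks old, gave RNA of the cervical spinal cord, as the labels name the tissue, for 8 arrays in 4 groups of 2. The MPTP group received 20 mg/kg every 24 h for 4 weeks. The acupoint group received the same MPTP and manual needling at points GB34 (3 mm deep) and LR3 (1 mm deep) on the legs and feet, in 14 sessions every 48 h that began 2 h after MPTP. The nonacupoint group received the same MPTP and needling at both hips to a depth of 3 mm. The control group received saline only, and no group without MPTP was needled. Each sample title names 1 numbered mouse, but no source used here says whether the RNA came from that mouse alone or from a pool. The p-values therefore measure only how these samples vary, and that variation may be technical. Each of 19938 genes was represented by 1 probe set, taken from 21789 probe sets that carry a single gene symbol among 35557 on the array, and where a gene had several the one with the highest mean over the 8 arrays was used. All values are log2 signals as deposited, so a difference of 1 is 2-fold.

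MPTP is oxidised by monoamine oxidase B, largely in astrocytes, to a cation that dopamine neurons take up and that blocks complex I of the mitochondrial respiratory chain. The cervical cord holds no dopamine cell bodies of the midbrain type; it holds motor neurons, dorsal horn sensory circuits, inhibitory interneurons, glia and vessels, and receives monoamine fibres from the brain. Whole-transcript arrays of this design carry probes for messenger RNAs and also for long non-coding RNAs, small nucleolar RNAs (snoRNAs) and microRNA precursors, many of which are processed from the introns of longer transcripts.

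The labelled tissue could be checked from marker genes. Neuronal Snap25 averaged 12.34 over the 8 arrays, myelin Mbp 12.02, the glycine transporter gene Slc6a5 11.11, astrocytic Gfap 11.05, cholinergic Chat 7.31 and the cervical-level gene Hoxa5 8.41, while the forebrain gene Emx2 lay at 4.22, below the 30th percentile of all probe sets (4.30). Hox genes of group 10, which mark lumbar levels in the embryo, were also well above that percentile: Hoxd10 was between 7.64 and 9.07 on 7 arrays and 4.58 on nonacupoint replicate 1, and Hoxc10 was 7.06 to 7.83 on the same 7 arrays and 5.18 on that one. These levels go against a purely cervical origin of the 7 arrays as the labels give it, and nonacupoint replicate 1 stood apart from them. Without that array 3807 genes passed the test given below, of which 3781 were among those passing with it.

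Markers of other tissues also differed between arrays. The mean level of 22 skeletal muscle genes was 5.72 to 6.02 on 5 treated arrays and 6.88 on acupoint replicate 1, against 7.34 and 8.62 on control replicates 1 and 2. 14 adipocyte genes averaged 7.89 on nonacupoint replicate 2, 5.99 to 6.35 on the other treated arrays, and 6.08 and 6.18 on the controls. Genes of Schwann cells and of meningeal fibroblasts were higher on MPTP replicate 2, acupoint replicate 1 and control replicate 1 than on the rest. The part of these differences in the results was not tested, because both control arrays carried the most muscle signal and the 2 classes of array cannot be told apart from it with so few arrays. A fit with the muscle level as a covariate removed most of the calls, and the named genes that kept theirs are given with the counts below.

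**Figure D1:**
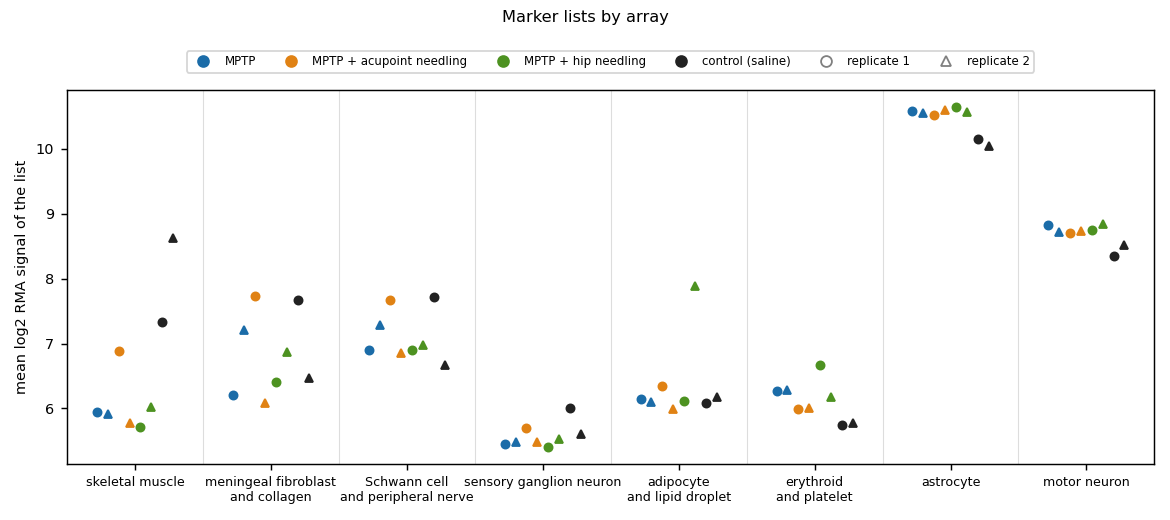
Mean log2 signal of 8 marker lists (vertical axis) on each array (points; circles are replicate 1 and triangles replicate 2, coloured by group). Skeletal muscle genes were highest on the control arrays, at 7.34 and 8.62, and next on acupoint replicate 1, at 6.88, while astrocyte and motor neuron genes were higher on all 6 MPTP arrays than on both controls.

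In the pooled comparison, 3426 genes were higher (17.2% of those tested) and 1145 lower (5.74%) in MPTP-injected mice at an adjusted p below 0.05 (limma's moderated test with Benjamini-Hochberg adjustment over 19938 genes), 4571 in all (22.9%). Most of the shifts were small: the median size of a called difference was 0.41, and only 21 called genes were at least 2-fold higher and 94 at least 2-fold lower. For a stricter reading of what the treated arrays share, a gene was counted as separated when all 6 treated values lay beyond both control values. That held for 4285 genes on the higher side (21.5%) and 2151 on the lower side (10.8%), and 4360 of the 4571 called genes were among them. The nearest treated and control arrays were at least 1.5-fold apart for 41 higher genes (0.206%) and 87 lower genes (0.436%), and at least 2-fold apart for 0 higher and 25 lower genes (0.125%). These separations are descriptions, since 6 arrays against 2 allow 28 splits and an exact permutation p no smaller than 0.0357 for a single gene. At an unadjusted p below 0.05 limma gave 6799 genes.

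The 3 MPTP groups were compared with the same 2 control arrays, so a like sign in all 3 is not counted as a result. For 3791 of the 4571 called genes the spread across the 6 treated arrays was smaller than the difference from control, with a median SD of 0.10 among the treated arrays. The test weighs the difference against a spread made largely of these arrays, so this describes the called genes and is not separate support. No gene passed an F-test among the 3 MPTP groups (limma, 0 of 19938 at adjusted p below 0.05, 408 or 2.05% at an unadjusted p below 0.05), which does not show that the groups were equal with 2 arrays each. Set against the same 2 control arrays one at a time, MPTP alone gave 3557 called genes, acupoint needling 140 and nonacupoint needling 3321. Acupoint replicate 1 was the treated array with the most muscle signal, and without it the pooled count was 6461, which held 4566 of the 4571. Leaving out control replicate 2 lowered it to 2118 (1642 higher, 476 lower). With the muscle level as a covariate 96 genes remained past the threshold (45 higher, 51 lower), 88 of them among the 4571. Of the genes named in the following paragraphs, those that kept their call in that fit were Glra3, Slc2a1, Slc1a4, Prkcsh, Bcap31, Ndnf, Clstn3, Spop, Pnmal2, Slc1a2, Gabrb1, Slc5a7, Slc18a3 and Eno2 on the higher side, and Rian, Meg3, Mir377, Mir539, Mir541, DQ267102, Snord14e, Mir690, Snhg11, Lncpint, Leng8, Wsb1, Nktr, Ccnl2, Ints6l, Cplane1, Atxn2l, Rnpc3 and Cd46 on the lower side. Myh1, a skeletal muscle gene, passed in it with the opposite sign, and the other called genes named there did not pass. The covariate is the mean of the muscle list, so that fit bears on none of the list's own genes. A call lost in that fit does not by itself mean a smaller difference. Some differences grew, such as those of Chat (0.82 to 0.99) and Airn (-0.69 to -0.84). Others shrank, such as that of Nts (0.75 to 0.06).

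Direction depended on signal. When genes were split into 5 equal bands by mean signal, 43.3% of the brightest band were called higher and 5.44% lower, against 0.527% higher and 4.39% lower in the dimmest band. Called genes that were lower were spread more evenly over the bands, from 175 in the dimmest to 271 in the middle one. Beside the counts of higher genes in the groups below, the number of members in the brightest band is therefore given where most of them lie in it.

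**Figure D2:**
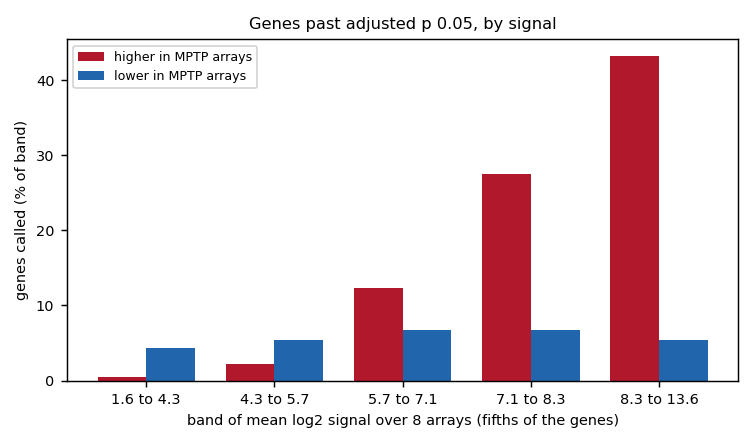
Share of genes called (vertical axis, % of the genes in a band) in 5 bands of mean log2 signal over the 8 arrays (horizontal axis); red bars are genes higher and blue bars genes lower in the 6 MPTP arrays than in the 2 control arrays. The red bars climb with signal to 43.3% in the brightest band, while the blue bars stay between 4.39% and 6.80%.

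The genes with the clearest shared increase were all protein-coding, as were all 41 that were at least 1.5-fold apart. Glra3, which encodes the alpha 3 subunit of the inhibitory glycine receptor, had the widest separation. Its level was 7.65, 7.63, 7.63, 7.75, 7.62 and 7.47 on the treated arrays (MPTP, acupoint and nonacupoint replicates in turn), against 6.60 and 6.43 on the controls. All 6 treated arrays lay within 0.28 of each other and 0.87 above the higher control, and the mean difference was 1.11 ± 0.08 (SE; adjusted p = 2.62e-05, limma).

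Slc2a1 and Slc1a4, both solute carriers, were also among the 15 named genes with the widest separation. Slc2a1, the glucose transporter GLUT1 of brain capillaries and astrocytes, was 10.82, 10.81, 10.88, 10.86, 10.95 and 10.92 on the treated arrays and 10.05 and 9.86 on the controls, a difference of 0.92 ± 0.06 with an adjusted p of 1.22e-05. Slc1a4, a transporter of alanine, serine and other neutral amino acids, was 8.46 to 8.53 on the treated arrays and 7.67 and 7.76 on the controls (0.79 ± 0.06, adjusted p = 2e-05). Slc2a3, the neuronal glucose transporter GLUT3, was not among the 15 but was also separated, at 9.87, 9.97 and 10.01 (lowest, median and highest treated array) against 9.28 and 8.99. Separation is the rule by which Slc2a1 and Slc1a4 were named, so their lack of overlap is not a further result.

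The same 15 included Prkcsh, Bcap31, Golim4, Lgals3bp, Ndnf and Cd109. Prkcsh, a subunit of the glucosidase that trims glycans in the endoplasmic reticulum, differed by 0.85 ± 0.07 (treated 8.97 to 9.15, control 8.24 and 8.19; adjusted p = 3.03e-05). Bcap31, a sorting protein of the endoplasmic reticulum membrane, differed by 0.79 ± 0.06, and Golim4, a Golgi membrane protein, by 1.01 ± 0.12. Lgals3bp, a secreted glycoprotein that binds galectin 3, was 7.81 to 8.13 on the treated arrays and 7.03 and 6.72 on the controls. Ndnf, a secreted neurotrophic factor, differed by 0.82 ± 0.08 and Cd109, a membrane-anchored protein that modulates TGF-beta signalling, by 0.94 ± 0.16.

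The other separated genes have mixed roles. Clstn3, a synaptic adhesion protein of the calsyntenin family, was 10.43 to 10.54 on the treated arrays and 9.71 and 9.65 on the controls, one of the narrowest treated spreads among the named genes (0.78 ± 0.05, adjusted p = 1.13e-05). Spop, the substrate adaptor of a cullin 3 ubiquitin ligase, differed by 0.99 ± 0.08, Scp2, a sterol carrier protein of peroxisomes, by 1.10 ± 0.11, Uprt, related to uracil salvage enzymes, by 1.02 ± 0.09, Pnmal2 by 0.90 ± 0.06 and Vwa5a by 1.02 ± 0.09. All 15 of these genes kept their call when any 1 control array or acupoint replicate 1 was left out. With muscle level as a covariate 9 of the 15 kept it, and Lgals3bp, Uprt, Scp2, Vwa5a, Golim4 and Cd109 did not.

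**Figure D3:**
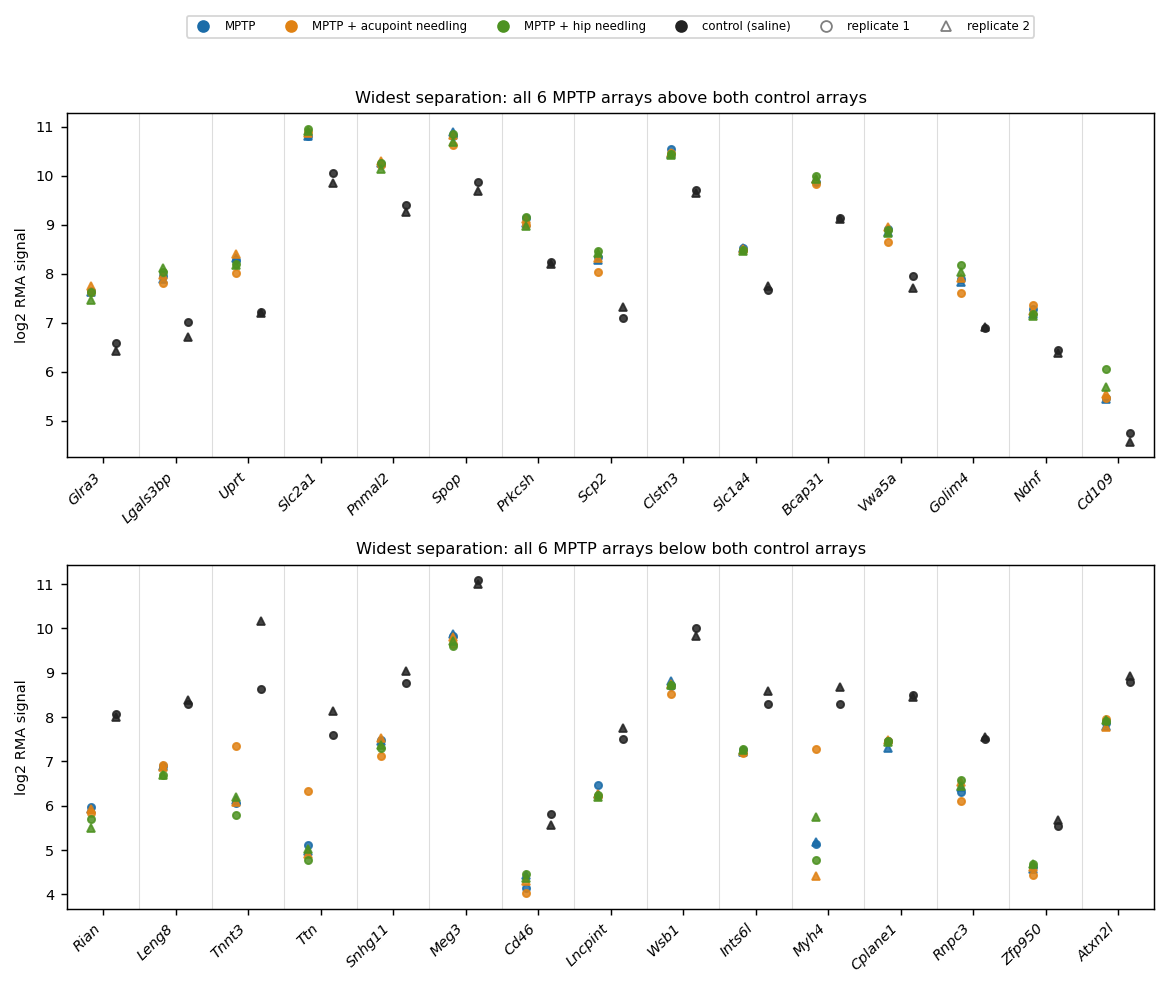
Log2 signal (vertical axis) of the 15 named genes with the widest separation in each direction (small RNAs and genes without a common name left out); for each gene the 6 MPTP arrays stand on the left, coloured by group, and the 2 control arrays in black on the right. In the upper panel every treated point is above both controls, and in the lower panel every treated point is below both; Tnnt3, Ttn and Myh4 show acupoint replicate 1 apart from the other treated arrays.

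Larger but less even increases were seen elsewhere. Alas2, the erythroid enzyme that starts haem synthesis, was 7.87, 7.81, 5.59, 6.64, 8.57 and 7.40 on the treated arrays and 5.24 and 5.54 on the controls, with the acupoint arrays nearest to the controls. Its difference of 1.92 ± 0.58 passed at an adjusted p of 0.0315 and did not pass with any 1 of 5 arrays left out (both control arrays, both MPTP arrays and nonacupoint replicate 2). Hmgn5, a nucleosome-binding protein, was 6.21, 7.29 and 7.44 on the treated arrays (lowest, median and highest) against 5.93 and 5.14, the lowest value being acupoint replicate 1, and lost its call without control replicate 2. Etnppl, an astrocyte enzyme that breaks down phosphoethanolamine, was 8.77, 9.42 and 9.52 against 8.05 and 8.22, and Car5b, a mitochondrial carbonic anhydrase, differed by 1.24 ± 0.15. Fads2b, Ipp and Dmp1 differed by 1.19 ± 0.20, 1.14 ± 0.17 and 1.10 ± 0.19. Sp140, a nuclear body protein of immune cells, differed by 1.13 ± 0.21 and lost its call without control replicate 2. With muscle level as a covariate none of these 8 genes stayed past the threshold.

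The lower side of the comparison had a different make-up. Of the 87 genes at least 1.5-fold apart, 35 were protein-coding, 14 long non-coding RNAs, 20 microRNA genes and 13 snoRNA genes, and 5 of other kinds, although 18556 of the 19938 genes measured were protein-coding. 12 of the 87 were skeletal muscle genes and 17 lay in 1 imprinted region, between Dlk1 and Dio3 on chromosome 12.

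Many non-coding RNAs of that region fell. Rian, an imprinted long non-coding RNA expressed from the maternal chromosome, had the widest separation of all genes other than 1 microRNA gene of the same region, at 5.96, 5.93, 5.84, 5.92, 5.69 and 5.50 on the treated arrays, against 8.07 and 8.002 on the controls. The difference was -2.23 ± 0.12 (adjusted p = 7e-06), a 4.7-fold decrease, and the nearest arrays were 4.11-fold apart. Meg3, the long non-coding RNA at the start of the same maternal transcript unit, was 9.82, 9.88, 9.65, 9.82, 9.60 and 9.73 on the treated arrays, against 11.09 and 10.99 on the controls (-1.29 ± 0.08, adjusted p = 7e-06). Both kept their calls under the muscle covariate and under each scaling tried.

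Of the region's 103 RefSeq genes, 48 were measured with a single-symbol probe set; the region was chosen after its values were seen, and its members are placed by their order in the annotation. 32 of the 48 were lower and 0 higher (5.74% and 17.2% of all genes), with a median difference of -0.65 against 0.026 over all genes. All 32 were among the 45 non-coding genes. The 3 protein-coding genes, which are expressed from the paternal chromosome, did not pass: Dlk1 was 7.79, 7.91 and 8.34 on the treated arrays and 8.05 and 8.24 on the controls, Rtl1 differed by 0.05 ± 0.10 and Dio3 by 0.14 ± 0.14. Dlk1 alone of these passed without acupoint replicate 1. 28 of the 48 had a mean above the 30th percentile of signal, and 20 of these were lower. The count was 25 without control replicate 2, 29 without control replicate 1, 37 without acupoint replicate 1, 29 under cyclic loess and 6 with the muscle covariate.

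**Figure D4:**
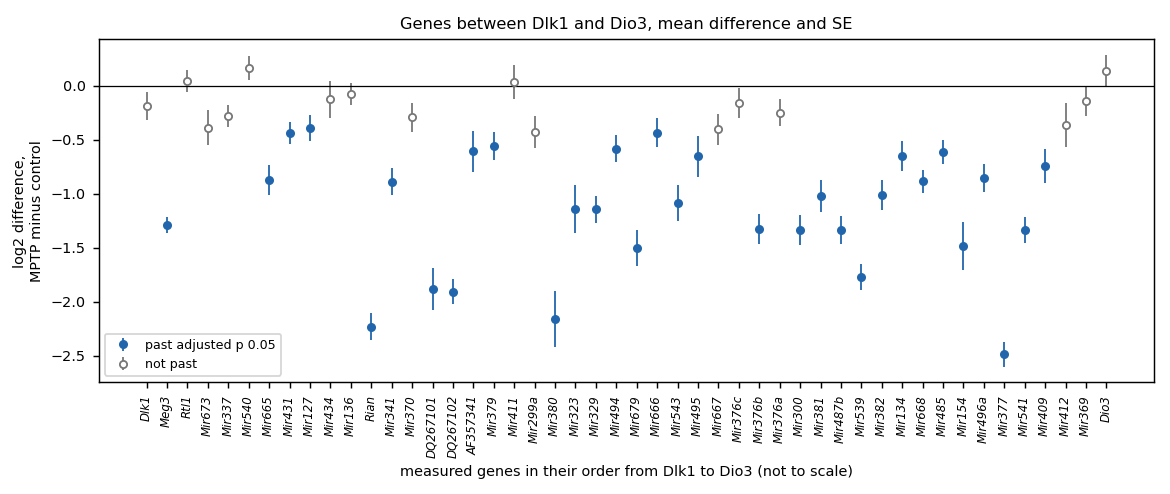
Difference of MPTP minus control arrays (vertical axis, log2, with SE) for the 48 measured genes between Dlk1 and Dio3, in their order along chromosome 12 (horizontal axis, not to scale); filled points passed an adjusted p of 0.05. Filled points are all below 0 and run through the region from Meg3 to Mir409, while Dlk1, Rtl1 and Dio3 are open and near 0.

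The microRNA genes with the widest separation in this region are shown with their mature sequences, since each array feature stands for a whole precursor gene and both arms are products of it. The sequences are RefSeq's (GRCm38.p6, plus strand), written 5′ to 3′ with the seed, bases 2 to 8, in capitals. The first 5 genes had treated and control arrays more than 2-fold apart, and the last 2 sequences show 1 of 3 pairs of seeds that differ at a single base among the 24 mature sequences of the 13 region microRNAs at least 1.5-fold apart.
mmu-miR-377-5p: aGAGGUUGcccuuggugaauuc
mmu-miR-377-3p: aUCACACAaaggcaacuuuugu
mmu-miR-539-5p: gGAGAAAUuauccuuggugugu
mmu-miR-380-5p: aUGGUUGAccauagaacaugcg
mmu-miR-380-3p: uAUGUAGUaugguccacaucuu
mmu-miR-487b-5p: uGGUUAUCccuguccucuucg
mmu-miR-541-5p: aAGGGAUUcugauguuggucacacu
mmu-miR-541-3p: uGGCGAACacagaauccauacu
mmu-miR-300-3p: uAUGCAAGggcaagcucucuuc
mmu-miR-381-3p: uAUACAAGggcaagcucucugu

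No 2 of the 24 mature sequences had the same 7-base seed. The sequences used held only the 5p arm of Mir539 and of Mir487b, so seeds of their 3p arms were not compared. The seeds of miR-300-3p and miR-381-3p matched at 6 of 7 bases, as did those of miR-377-5p with miR-329-5p and of miR-679-3p with miR-381-5p. Mir377 was 3.81, 3.92 and 4.13 on the treated arrays (lowest, median and highest), against 6.39 and 6.51 on the controls, a difference of -2.49 ± 0.12 with an adjusted p of 2.43e-06. Mir539 was 3.74, 3.95 and 4.09 against 5.73 and 5.67 (-1.77 ± 0.12), and Mir380 was 2.57, 3.33 and 3.82 against 5.32 and 5.51 (-2.16 ± 0.26). Mir487b differed by -1.34 ± 0.13 and Mir541 by -1.33 ± 0.12. With the muscle covariate Mir380 and Mir487b did not pass. All 5 were chosen by their separation from both controls. The treated values of Mir377, Mir539, Mir380 and Mir541 were themselves under the 30th percentile of all probe sets, where signal above background is not known. These probe sets do not separate precursor from mature RNA.

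Small RNAs outside the region shifted in the same direction, where 5.74% of all genes were lower and 17.2% higher. Of 51 snoRNA genes outside it, which guide chemical modification of ribosomal and spliceosomal RNA, 39 were lower (76.5%) and 0 higher, with a median of -0.68; both of those inside it, DQ267101 and DQ267102, were also lower, which makes 41 of 53. Of 257 microRNA genes elsewhere, 49 were lower (19.1%) and 2 higher, with a median of -0.16. Only 95 of the 257 had a mean above the 30th percentile of signal. Probe sets without a gene symbol were lower in a like share (19.2%), with a median of -0.19, so this shift was not particular to microRNA genes. These sets by kind of RNA were drawn up after the values were seen. The count over all 53 was 24 without control replicate 2, 34 without control replicate 1 and 3 with the muscle covariate. For microRNA genes elsewhere the median moved to 0.0254 under quantile normalization, where 17 were higher and 28 lower; the count lower was 31 without control replicate 1 and 33 without control replicate 2.

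Most vertebrate snoRNAs are cut from introns of the genes that host them, so host and snoRNA probes read exons and intron of 1 primary transcript. For 31 snoRNA genes that lie within exactly 1 other measured gene (strand not considered), 26 were lower, with a median of -0.84. Their 27 hosts had 4 genes higher and 3 lower, with a median of -0.065 (17.2% of all genes were higher and 5.74% lower). Snora23 was 4.85 to 5.52 on the treated arrays, against 6.42 and 6.92 on the controls (-1.61 ± 0.18, adjusted p = 0.000193), while its host Ipo7, a nuclear import receptor, was 9.63, 9.93 and 9.98 against 9.45 and 9.35 and was higher (0.48 ± 0.09, adjusted p = 0.00232). Snord14e, within the chaperone gene Hspa8, differed by -1.53 ± 0.17 and Hspa8 by 0.17 ± 0.04, a call of the host that did not hold without either control array. Snord82 and its host Ncl, which encodes nucleolin, differed by -1.02 ± 0.15 and 0.49 ± 0.11, and Snord37 and its host Eef2, a translation elongation factor, by -1.20 ± 0.14 and 0.02 ± 0.06. In 5 of the 26 pairs with a lower snoRNA the host was higher and in 4 it was lower; the 4 include DQ267101 and DQ267102, snoRNAs within Rian. Ncl did not pass without control replicate 2.

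MicroRNA genes within host genes gave pairs of both kinds. Of 140 that lie within 1 measured host (strand not considered), 38 were lower. The hosts of these 38 were higher for 7, a share close to the 17.2% of all genes. They were lower for 9, a larger share than the 5.74% of all genes. Some hosts, such as Mir100hg, were counted for more than 1 microRNA gene. Mir100 and its long non-coding host Mir100hg were both lower, with differences of -0.91 ± 0.12 and -0.78 ± 0.12. Mir690 differed by -1.54 ± 0.15 (treated 3.39 to 3.90, control 5.13 and 5.18) and its host Fgf12, a sodium channel modulator, by 0.37 ± 0.09. Mir7-1, within Hnrnpk, differed by -0.92 ± 0.15, against 0.40 ± 0.07 for the host. Mir423 and its host Nsrp1, a splicing regulator, differed by -0.48 ± 0.11 and 0.78 ± 0.11. Mir186 differed by -1.33 ± 0.16, while its host Zranb2 did not pass (-0.09 ± 0.09, adjusted p = 0.555). Without control replicate 1 neither Fgf12 nor Mir423 passed. In the pairs with Fgf12, Hnrnpk, Nsrp1 and Zranb2 the small RNA was below both controls on every treated array and the host was not.

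Some long RNAs that are retained in the nucleus belonged to the same side. Of 18 nuclear and imprinted non-coding RNAs listed, only 8 were measured. Among these 8, 5 were lower and 0 higher (5.74% and 17.2% of all genes). That count was the same under each scaling tried and without either control array. The 5 were Rian and Meg3, already counted in the imprinted region above, with Snhg11, Malat1 and Airn. Snhg11, a long non-coding RNA of neurons, was 7.49, 7.46, 7.13, 7.52, 7.30 and 7.37 on the treated arrays, against 8.77 and 9.05 on the controls (-1.53 ± 0.11, adjusted p = 1.74e-05). Malat1, an abundant RNA of nuclear speckles, was 10.11, 10.54 and 10.77 on the treated arrays, against 11.51 and 11.47 (-0.98 ± 0.13, adjusted p = 0.000439). Airn, an imprinted antisense RNA, differed by -0.69 ± 0.12. With the muscle covariate neither Malat1 nor Airn passed, at differences of -0.86 and -0.84 in that fit. Lncpint, a long non-coding RNA linked to p53 and not in that list, was 6.47, 6.26, 6.21, 6.27, 6.25 and 6.20 against 7.50 and 7.76 (-1.35 ± 0.10). Gas5, Pvt1 and Xist did not pass, with differences of -0.08, 0.07 and 0.07. The value of Gas5 rests on its brightest probe set: the other 3 probe sets of the gene differed by -0.56, -1.37 and -1.12, each without overlap between treated and control arrays.

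Transcripts known to keep introns in the nucleus also fell. Of 23 such detained-intron transcripts, 13 were lower and 0 higher (5.74% and 17.2% of all genes), with a median of -0.36. In the brightest band, which held 16 of the 23, 5.44% were called lower and 43.3% higher. Leng8 was 6.90, 6.89, 6.92, 6.87, 6.70 and 6.70 on the treated arrays, against 8.29 and 8.39 on the controls (-1.51 ± 0.09, adjusted p = 7e-06), the widest separation of any protein-coding gene. Wsb1, an E3 ubiquitin ligase subunit, was 8.70, 8.81, 8.51, 8.75, 8.72 and 8.72 against 10.02 and 9.82 (-1.22 ± 0.08, adjusted p = 1.13e-05). Nktr, a cyclophilin with an arginine-serine domain, differed by -0.81 ± 0.07, Rsrp1 by -0.71 ± 0.08, Ccnl2, a cyclin of splicing speckles, by -0.62 ± 0.08, Tia1, an RNA-binding protein, by -0.61 ± 0.08 and the kinase gene Clk4 by -0.42 ± 0.10. Under centring on the median of all probe sets, where the median of all genes was 0.18 (log2), 9 were lower and 5 higher; 8 were lower with the muscle covariate, and 9 without control replicate 1. Clk4 did not pass without either control array.

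Splicing factors themselves did not move one way. Of 30 SR, hnRNP and related genes, 9 were higher and 4 lower, 22 of the 30 lay in the brightest band (43.3% called higher), and the median was 0.077, which turned to -0.0069 under quantile normalization, -0.060 under cyclic loess and -0.079 with the muscle covariate. Hnrnpk, an abundant nuclear RNA-binding protein, was 11.77, 11.91 and 12.001 on the treated arrays and 11.58 and 11.41 on the controls, and U2af2, which recognises the 3′ splice site, differed by 0.39 ± 0.08 but did not pass without control replicate 2. Srrm1 and Srrm2, scaffold proteins of nuclear speckles, were lower by 0.52 and 0.26 (differences of -0.52 and -0.26; Srrm2 not without either control array). The counts were 13 higher and 1 lower without control replicate 1, and 1 higher and 2 lower without control replicate 2.

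Of the other widely separated protein-coding genes on the lower side, Zfp950 is in the list of KRAB zinc finger genes and the rest are in no list used here. Ints6l, a paralogue of an Integrator subunit, was 7.26, 7.21, 7.20, 7.24, 7.29 and 7.25 on the treated arrays and 8.30 and 8.59 on the controls (-1.20 ± 0.08, adjusted p = 1.13e-05). Cplane1, a ciliary protein, was 7.31 to 7.49 against 8.49 and 8.46 (-1.04 ± 0.07), and Atxn2l, a stress granule protein, was 7.78 to 7.95 against 8.80 and 8.93 (-0.99 ± 0.07). Rnpc3, a protein of the minor spliceosome, differed by -1.13 ± 0.12. Cd46, a complement regulator, differed by -1.40 ± 0.14, with treated values (4.03 to 4.47) near the 30th percentile of signal, and the zinc finger gene Zfp950 by -1.01 ± 0.11. Zfp950 lost its call with the muscle covariate and the other 5 did not.

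The largest decreases of all were in skeletal muscle genes: 20 of 22 were lower and 1 higher, with a median of -1.88 that was -1.17 without control replicate 2 and -2.61 without control replicate 1. Cord tissue contains no skeletal muscle, and in bulk RNA fewer cells of a type and less RNA per cell cannot be told apart. Tnnt3, fast troponin T, was 6.06, 6.14, 7.36, 6.08, 5.79 and 6.20 on the treated arrays and 8.64 and 10.18 on the controls (-3.14 ± 0.40, adjusted p = 0.000373). Ttn, the giant sarcomere protein titin, was 5.12, 4.97, 6.34, 4.91, 4.77 and 5.03 against 7.59 and 8.13, and Myh4, a fast myosin heavy chain, 5.14, 5.19, 7.27, 4.41, 4.77 and 5.76 against 8.29 and 8.69. Acupoint replicate 1 was the highest treated array for all 3, and control replicate 2 was the higher control. Atp2a1 (sarcoplasmic calcium pump), Ckm (muscle creatine kinase), Myl1 (myosin light chain) and Acta1 (skeletal actin) differed by -3.20 ± 0.56, -2.97 ± 0.47, -2.81 ± 0.48 and -2.65 ± 0.49.

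Smaller differences of the same kind were seen for other sarcomere genes. Neb, Tnnc2, Actn3 and Myot differed by -2.11 ± 0.32, -1.997 ± 0.31, -1.98 ± 0.29 and -1.77 ± 0.46. Myh1 overlapped, with 4.26, 4.72 and 6.33 on the treated arrays and 5.77 and 8.61 on the controls. Without control replicate 2, 15 of the 22 were lower, and Atp2a1, Acta1, Myot and Myh1 no longer passed. The exception was Pygm, the muscle glycogen phosphorylase that astrocytes also express, at 10.22, 10.35 and 10.41 on the treated arrays and 9.82 and 10.13 on the controls (0.36 ± 0.08), which did not pass without control replicate 1. Usp17ld, a deubiquitinase gene of a multicopy family whose probes may not tell copies apart, differed by -1.38 ± 0.35 with 1 treated array near the controls (5.70, 6.12 and 7.46 against 7.75 and 7.51), and lost its call without either control array. The muscle covariate is the mean of this list, so it bears on none of the list's own genes; Usp17ld, which is not in the list, did not pass with it.

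Among the cell types of the cord, astrocyte genes rose most often. 13 of 16 were higher and 0 lower, with a median of 0.43, where 15 of the 16 lay in the brightest band of genes, of which 43.3% were called higher. Slc1a2 and Slc1a3, the glial glutamate transporters, were 11.69, 11.74 and 11.83 against 11.20 and 11.24 and 9.02, 9.11 and 9.22 against 8.58 and 8.09 (differences of 0.53 ± 0.05 and 0.78 ± 0.11). Aldh1l1, a folate enzyme used as an astrocyte marker, differed by 0.74 ± 0.08 and Agt, angiotensinogen, by 0.75 ± 0.07. Gfap, the intermediate filament that rises in reactive astrocytes, was 11.005, 11.14 and 11.45 against 10.72 and 10.66 (0.47 ± 0.09, adjusted p = 0.00397). Treated and control arrays did not overlap for any of these 5, and Gfap did not pass without control replicate 2. The count was 14 without control replicate 1 and 11 without control replicate 2, 13 to 15 under the scalings tried, and 1 with the muscle covariate (Slc1a2).

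Genes of inhibitory transmission rose next. Of 17 GABA and glycine genes, 12 were higher and 0 lower, with a median of 0.42; 14 of the 17 lay in the brightest band (43.3% called higher). Beside Glra3, described above, Glra2 and Glra1 differed by 0.77 ± 0.16 and 0.23 ± 0.06, and the shared beta subunit gene Glrb by 0.42 ± 0.06. Gabrb1 was 9.04, 9.15 and 9.19 on the treated arrays and 8.41 and 8.46 on the controls (0.69 ± 0.06, adjusted p = 6.71e-05), and Gabra3 differed by 0.65 ± 0.08; both encode subunits of the GABA-A receptor. Gad1 and Gad2, which make GABA, differed by 0.44 ± 0.07 and 0.49 ± 0.08. Slc6a5, the glycine transporter of inhibitory neurons, did not pass, with 11.05, 11.13 and 11.21 against 11.01 and 11.09. 10 were higher without either control array, 10 under cyclic loess (with 1 lower) and 2 with the muscle covariate. Glra1 did not pass without control replicate 1 and Glra2 without control replicate 2.

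Of 16 glutamate receptor and vesicle transporter genes, 4 were higher and 0 lower. Slc17a6, the vesicular glutamate transporter VGLUT2, differed by 0.71 ± 0.08, Gria1 and Gria3, AMPA receptor subunits, by 0.52 ± 0.08 and 0.50 ± 0.08, and Grik3, a kainate receptor subunit, by 0.27 ± 0.09 with an adjusted p of 0.0453 that did not hold without any 1 of the control arrays, the MPTP arrays and acupoint replicate 2. This share is near the 17.2% of all genes.

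Some motor neuron and dorsal horn genes were higher and 0 were lower. 10 of 17 motor neuron genes passed, with a median of 0.31 (0.20 without control replicate 1), and 12 of the 17 lay in the brightest band, of which 43.3% were called higher. Chat, which makes acetylcholine, was 7.30, 7.51 and 7.74 on the treated arrays and 6.51 and 6.88 on the controls (0.82 ± 0.13, adjusted p = 0.00131). Slc5a7, the choline transporter, was 9.46, 9.70 and 9.80 against 8.70 and 9.03 (0.80 ± 0.10), and Slc18a3, the vesicular acetylcholine transporter, differed by 0.40 ± 0.11 but did not pass without control replicate 1. The count was 6 without control replicate 1 and 2 with the muscle covariate. 10 of 21 dorsal horn peptide and receptor genes passed, with a median of 0.38, and 5 of the 21 lay in the brightest band. Pdyn, the dynorphin precursor, was 6.78, 6.85 and 6.93 against 6.20 and 5.93 (0.78 ± 0.09, adjusted p = 0.000227), and Npy1r and Nts, a neuropeptide Y receptor and neurotensin, differed by 0.85 ± 0.12 and 0.75 ± 0.14. That count fell to 5 without control replicate 2, where Nts no longer passed, and to 0 with the muscle covariate.

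Pan-neuronal genes behaved much like bright genes in general. 8 of 16 were higher and 0 lower, and all 16 lay in the brightest band of genes, with 43.3% called higher. Eno2, neuron-specific enolase, was 11.74, 11.83 and 11.86 on the treated arrays and 11.25 and 11.21 on the controls (0.59 ± 0.05, adjusted p = 4.6e-05), and it kept its call with the muscle covariate. Snap25, part of the vesicle fusion machinery, differed by 0.39 ± 0.07 and Syp, synaptophysin, by 0.32 ± 0.05. 4 were higher and 1 lower under cyclic loess. Of 16 potassium channel genes, 5 were higher and 2 lower, where 17.2% and 5.74% of all genes were. The largest difference was that of Kcnab1, an auxiliary subunit (0.54 ± 0.07). Of these channel genes 3 higher and 0 lower remained without control replicate 2.

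Oligodendrocytes gave 8 of 15 higher and 1 lower, with a median of 0.22, and 12 of the 15 lay in the brightest band (43.3% called higher). Mag, a myelin adhesion protein, was 11.09, 11.24 and 11.39 on the treated arrays and 10.64 and 10.65 on the controls (0.59 ± 0.07, adjusted p = 0.000256), and Cnp differed by 0.37 ± 0.05. Mbp did not pass (0.04 ± 0.05), and Myrf, the transcription factor of myelin genes, was lower (-0.30 ± 0.08) but not without either control array. Without control replicate 1 the counts were 5 and 0, without control replicate 2 they were 3 and 0, and under cyclic loess 4 and 3. Of 10 precursor genes, 3 were higher, including Pdgfra, the growth factor receptor that marks these cells (0.52 ± 0.08), and 1 was lower. Over all genes 17.2% were higher and 5.74% lower.

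Microglial genes were higher in 11 of 20 and lower in 0, with a median of 0.35, and 4 of the 20 lay in the brightest band. Ctss, the lysosomal protease cathepsin S, was 9.96, 10.13 and 10.41 on the treated arrays and 9.33 and 9.38 on the controls (0.83 ± 0.11, adjusted p = 0.000411). Itgam, an integrin of myeloid cells, was 6.94, 6.97 and 7.18 against 6.21 and 6.46 (0.68 ± 0.10), and Cx3cr1, the fractalkine receptor, 7.87, 7.94 and 8.002 against 7.56 and 7.43 (0.45 ± 0.07). The complement genes C1qa and C1qb differed by 0.59 ± 0.13 and 0.51 ± 0.10; C1qa lost its call without control replicate 1, C1qb without control replicate 2. The count was 8 without control replicate 1, 7 without control replicate 2, 10 under cyclic loess and 0 with the muscle covariate. Interferon and antigen-presentation genes passed in 2 of 15 (Ifit2, 0.67 ± 0.12, and Usp18, 0.38 ± 0.12), fewer than the 17.2% of all genes, and Usp18 did not pass without any 1 array other than acupoint replicate 1.

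Genes of the vessel wall and blood-brain barrier were higher in 6 of 14 and lower in 0, where 17.2% of all genes were higher and 5.74% lower. Slc2a1, described above, led them, and Abcb1a, a drug efflux pump of capillaries, was 8.73, 8.96 and 9.09 on the treated arrays and 8.37 and 8.25 on the controls (0.63 ± 0.09, adjusted p = 0.000536). The tight junction genes Cldn5 and Ocln differed by 0.41 ± 0.12 and 0.29 ± 0.08. 2 of 14 were higher without control replicate 2, and Cldn5 and Ocln were not among them; Ocln also failed without control replicate 1 or either MPTP array. Markers of blood cells other than Alas2 passed for Tubb1 alone (0.46 ± 0.15), 2 of 10 in all and 0 without either control array. Of 14 adipocyte genes only Plin4 passed (0.73 ± 0.21; not without either control array), of 12 Schwann cell genes only Cdh19 (1.04 ± 0.16; treated 7.72, 7.96 and 8.28, control 7.23 and 6.65), and of 17 meningeal and collagen genes 0 passed by limma (1 lower at an unadjusted p below 0.05), with a median of -0.28 that was 0.26 without control replicate 1 and -0.88 without control replicate 2. 4 of 13 sensory ganglion genes were lower, among them Scn10a, a sodium channel of pain-sensing neurons, at 4.19, 4.44 and 4.81 against 5.96 and 4.78, and 1 was higher; 1 was lower without control replicate 1, and Scn10a was not. Leaving out control replicate 2 and acupoint replicate 1 together gave 11 meningeal and 8 Schwann genes lower.

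**Figure D5:**
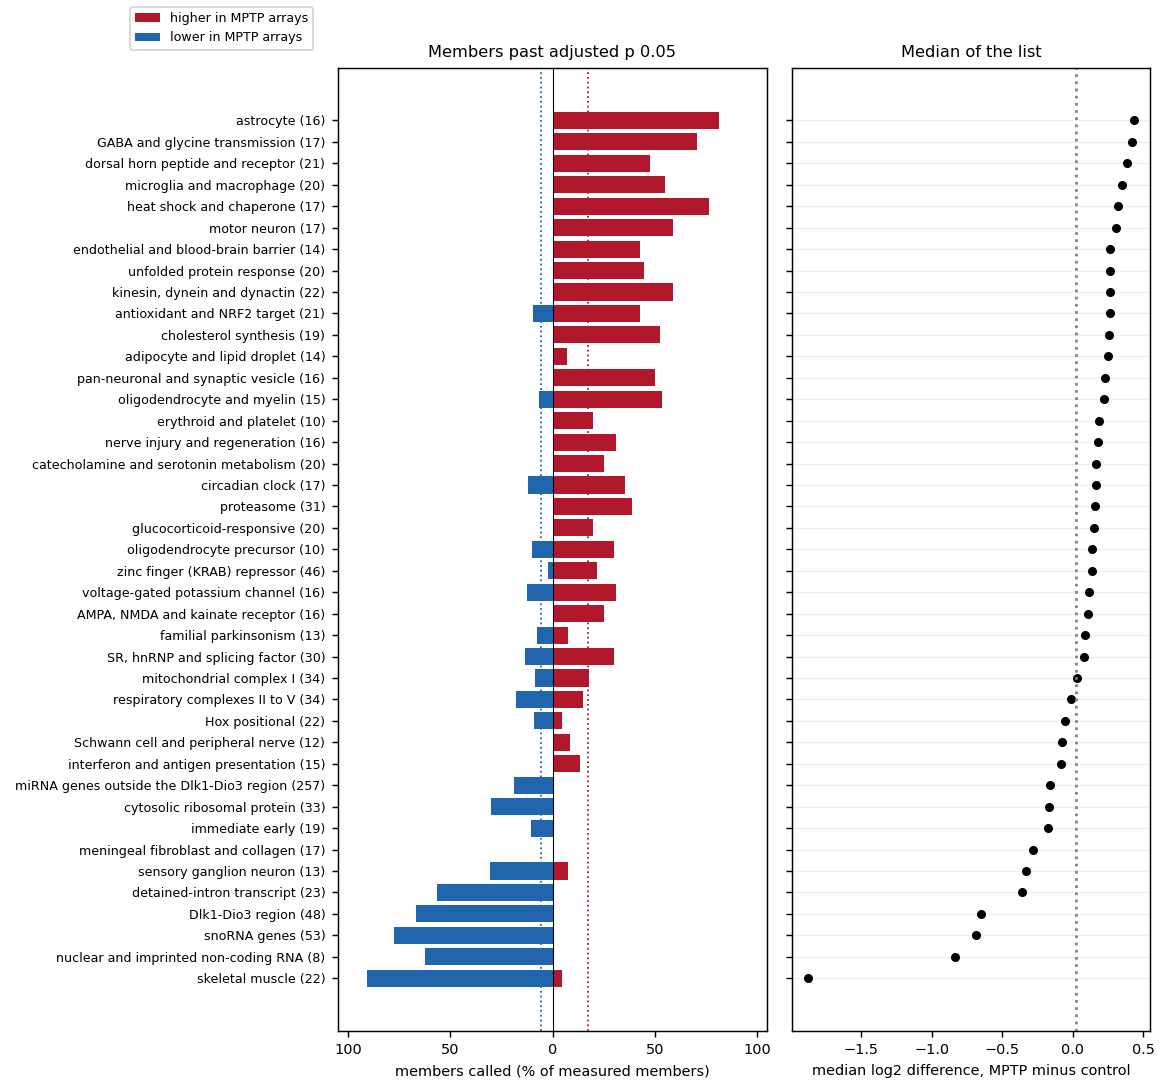
Left, share of measured members called higher (red, right of 0) or lower (blue, left of 0) in the 6 MPTP arrays for 41 lists of genes, with dotted lines at 17.2% and 5.74% for all genes; right, the median log2 difference of each list, with a dotted line at 0.026 for all genes. Cell-type lists of the cord lie at the top with red bars, and skeletal muscle, nuclear non-coding RNA, snoRNA and Dlk1-Dio3 genes lie at the bottom with blue bars.

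The genes most directly tied to MPTP were followed through 20 genes of catecholamine and serotonin metabolism, of which 5 were higher and 0 lower (17.2% of all genes were higher). Maob, the enzyme that activates MPTP, was 8.71, 8.77 and 8.82 on the treated arrays and 8.22 and 7.87 on the controls, without overlap (0.72 ± 0.08, adjusted p = 0.00024). Maoa, its partner enzyme, was 8.65, 8.73 and 8.80 against 8.26 and 8.08 (0.55 ± 0.07, adjusted p = 0.00029). Neither passed with the muscle covariate. Ddc, the decarboxylase that makes dopamine and serotonin, differed by 0.58 ± 0.12, Aldh1a1 by 0.36 ± 0.07 and the dopamine receptor Drd5 by 0.39 ± 0.10; Ddc did not pass without control replicate 2 and Drd5 without control replicate 1. Th, the rate-limiting enzyme of dopamine synthesis, was 6.07, 6.38 and 6.54 against 6.41 and 5.58 and overlapped (adjusted p = 0.228); it passed without control replicate 1, the higher of the controls. The transporters Slc6a3 and Slc18a2 differed by 0.11 and -0.04 and did not pass.

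Of 13 genes of familial parkinsonism, 1 was higher and 1 lower. Vps35, part of the retromer that sorts endosomal cargo, was 9.99, 10.19 and 10.23 on the treated arrays and 9.91 and 9.76 on the controls, and Vps13c, a lipid transfer protein, was 8.05, 8.08 and 8.28 against 8.35 and 8.47. Neither passed without control replicate 2. The other 11 had differences between -0.08 (Fbxo7, Synj1) and 0.21 (Gigyf2), and did not pass, with Pink1 at 0.13, Park7 at 0.04 and Lrrk2 at -0.03. Over all genes 17.2% were higher and 5.74% lower. In the brightest band, which held 9 of the 13, 43.3% were called higher and 5.44% lower. With 1 gene of 13 in each direction (7.69%), whether the list differs from either share was not tested.

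Respiratory chain genes did not move one way. Of 34 genes of complex I, the complex that MPTP's product blocks, 6 were higher and 3 lower, with a median of 0.03 (-0.060 without control replicate 1), where 28 of the 34 lay in the brightest band (43.3% called higher and 5.44% lower), and of 34 genes of complexes II to V, 5 were higher and 6 lower, with 31 in that band. Ndufs1, the largest complex I subunit, was 10.39, 10.61 and 10.63 on the treated arrays and 10.06 and 10.003 on the controls (0.54 ± 0.07, adjusted p = 0.000309), while Ndufa3, a small accessory subunit, was lower (-0.45 ± 0.07). Sdha and Atp5a1, large subunits of complexes II and V, differed by 0.30 ± 0.05 and 0.28 ± 0.05, and Cox6b1 and Atp5l, small subunits of complexes IV and V, by -0.40 ± 0.07 and -0.49 ± 0.08. The split was not stable: complex I had 1 higher and 5 lower without control replicate 1, 4 and 1 without control replicate 2, and 2 and 8 under cyclic loess, and the other complexes had 3 and 13 under cyclic loess, 3 and 9 without control replicate 1, 3 and 2 without control replicate 2 and 10 and 7 without acupoint replicate 1.

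Cytosolic ribosomal protein genes leaned lower, with 10 of 33 lower, 0 higher and a median of -0.17 (-0.060 without control replicate 2). Over all genes 5.74% were lower and 17.2% higher. In the brightest band, which held 28 of the 33, 5.44% were called lower and 43.3% higher. Rps12 was 9.70, 9.76 and 9.87 on the treated arrays and 10.12 and 10.23 on the controls (-0.41 ± 0.06, adjusted p = 0.000644), and Rps28 was 8.18, 8.30 and 8.43 against 8.75 and 9.05 (-0.59 ± 0.09). Many of these genes have processed copies in the genome, so probes may not be specific. The number lower was 25 under cyclic loess, 4 under centring on the median of all probe sets (with 1 higher), 4 without control replicate 2 and 0 with the muscle covariate.

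Protein folding genes were among those higher. 13 of 17 heat shock and chaperone genes were higher and 0 lower, with a median of 0.32, and 9 of 20 genes of the unfolded protein response were higher and 0 lower, with a median of 0.26. Of these, 14 of the 17 and 11 of the 20 lay in the brightest band, of which 43.3% were called higher. Hspa13, a chaperone of the endoplasmic reticulum, was 9.16, 9.44 and 9.47 on the treated arrays and 8.57 and 8.27 on the controls (0.95 ± 0.10, adjusted p = 0.000135). Hspa5, the main chaperone of that compartment, was 10.50, 10.72 and 10.85 against 10.20 and 10.04 (0.58 ± 0.08), and Canx, calnexin, 11.72, 11.79 and 11.82 against 11.32 and 11.13 (0.56 ± 0.06). Pdia3 and Dnajc3 differed by 0.51 ± 0.08 and 0.54 ± 0.07, and Xbp1, a transcription factor of the response, by 0.26 ± 0.08, which did not hold without any 1 of the control arrays, MPTP replicate 1 and acupoint replicate 2. The heat shock count was 10 without control replicate 1, 7 without control replicate 2, 8 (with 1 lower) under cyclic loess and 0 with the muscle covariate; the unfolded protein response count was 6 without control replicate 2.

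Motor proteins, proteasome subunits and cholesterol enzymes were also followed, with 43.3% of genes in the brightest band called higher. Of 22 kinesin, dynein and dynactin genes, 13 were higher and 0 lower, and 21 of the 22 lay in that band; Kif5b, a kinesin heavy chain, was 10.81, 11.004 and 11.11 on the treated arrays and 10.42 and 10.28 on the controls (0.64 ± 0.07, adjusted p = 0.000256). 12 of 31 proteasome genes, all in that band, were higher (38.7%) and 0 lower, a share no higher than that of the band, with 3 without control replicate 1 and 5 without control replicate 2; Psmd2 differed by 0.30 ± 0.05. Of 19 cholesterol synthesis genes, 10 were higher and 0 lower, and 4 without control replicate 2, with 13 of the 19 in that band; Ebp and Hmgcs1 differed by 0.52 ± 0.08 and 0.53 ± 0.09. With the muscle covariate the 3 counts were 0, and 8 kinesin, dynein and dynactin genes remained higher under cyclic loess and without control replicate 2.

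Antioxidant genes were higher in 9 of 21, of which 16 lay in the brightest band (43.3% called higher), and lower in 2. Cat, catalase, was 9.22, 9.32 and 9.45 on the treated arrays and 8.94 and 8.88 on the controls (0.42 ± 0.07, adjusted p = 0.00121), and Nqo1, a quinone reductase and NRF2 target, 6.24, 6.81 and 6.88 against 5.97 and 5.997 (0.73 ± 0.15). Sod2, the mitochondrial superoxide dismutase, differed by 0.33 ± 0.06. Gpx4, which removes lipid peroxides, was lower at 10.87, 10.91 and 10.96 against 11.12 and 11.28, as was Mt3, a neuronal metallothionein (-0.23 ± 0.06); neither passed without control replicate 2. Counts higher were 5 without control replicate 1, 4 without control replicate 2 and 4 under cyclic loess.

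Genes that follow time of day, hormones or recent activity were counted separately. Over all genes 17.2% were higher and 5.74% lower. Of 17 clock genes, 6 were higher and 2 lower: Nr1d1, the repressor REV-ERB alpha, was 9.05, 9.22 and 9.26 on the treated arrays and 9.72 and 9.78 on the controls (-0.57 ± 0.07, adjusted p = 0.000256), Per3 6.18, 6.27 and 6.38 against 6.91 and 6.70 (-0.53 ± 0.09), and Cry1 7.02, 7.14 and 7.30 against 6.78 and 6.49 (0.52 ± 0.10). The time of day at which tissue was taken is not stated in any source used here, and its part in these values was not tested. Without control replicate 2, 2 were higher and 2 lower, and Cry1 was not among them. 4 of 20 glucocorticoid-responsive genes were higher, a share near the 17.2% of all genes. Fkbp5, a classical target, was 7.57, 8.02 and 8.66 against 7.20 and 7.10 (0.95 ± 0.21, adjusted p = 0.0069, limma) and did not pass without control replicate 2. That count was 7 without acupoint replicate 1 and 1 without control replicate 2. Of 19 immediate early genes 0 were higher and 2 lower, Jund (-0.30 ± 0.06) and Btg2 (-0.46 ± 0.10, not past the threshold without control replicate 1), and 5 lower without acupoint replicate 1; Fos was 6.24, 6.51 and 6.67 against 6.29 and 6.01 and passed only without nonacupoint replicate 1.

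Positional, nerve injury and repressor genes complete the comparison, in which 17.2% of all genes were higher and 5.74% lower. Of 22 Hox genes, 1 was higher and 2 lower: Hoxd8 differed by 0.37 ± 0.09, Hoxd4 by -0.76 ± 0.13 and Hoxd3 by -0.45 ± 0.09, and Hoxd3 and Hoxd8 did not pass without control replicate 2. 5 of 16 nerve injury genes were higher, among them Sprr1a, a marker of regenerating neurons, at 5.22, 6.32 and 6.67 on the treated arrays and 5.16 and 4.97 on the controls (1.06 ± 0.32, adjusted p = 0.0327), which did not pass with any 1 of 5 arrays left out (both control arrays, acupoint replicate 2 and both nonacupoint arrays). In that list 3 passed when control replicate 1 or nonacupoint replicate 1 was left out, and 2 when control replicate 2 was. Of 46 KRAB zinc finger genes, 10 were higher (21.7%, near the share of all genes) and 1 lower (Zfp950, above). Without control replicate 2, 2 were higher. Zfp605 and Zfp354c differed by 1.09 ± 0.16 and 0.54 ± 0.08.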

How the data were processed

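The deposited values are log2 signals of 35557 probe sets on 8 arrays, which the authors made with Affymetrix Expression Console and RMA, per the submitters' processing notes, without a stated version. RMA subtracts background, equalises probe signals between arrays and summarises probes on a log scale; the log base was read from the range of the deposited values. Their number, 2 arrays a group, limits the precision, and no scan dates or measures of signal over background were used here. Of the probe sets, 21789 carry 1 gene symbol in the platform annotation, 1621 several and 12147 none.

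For each of 19938 genes the 6 MPTP arrays were compared with the 2 control arrays by limma (version 3.58.1, under R 4.3.3; eBayes after lmFit, trend on mean signal, 6 residual and 5.52 prior degrees of freedom, no filter on dim genes), with Benjamini-Hochberg adjustment over all genes and a threshold of 0.05. The F-test among the 3 MPTP groups came from a fit with 1 mean per group. The code was tested on simulated data. Alternatives were other scalings, filters, fits, left-out arrays and the mean of the 22 muscle genes as a covariate.

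Genes were named by rule, among called genes without overlap whose mean exceeded the 30th percentile of probe sets, leaving out small RNAs and genes without a common name: the 15 with the widest separation between treated and control arrays and the 8 with the largest other difference in each direction, the 6 with the widest treated range, and the called members of lists with the smallest p, followed by other genes of the same pathway. The members, the 38 lists and the tests were chosen with earlier results of these data known. The Dlk1-Dio3 region, the snoRNA and microRNA sets and the host gene pairs, with every small RNA named, were added after the values were seen. RefSeq tables (GRCm38.p6) gave the kind of RNA, the gene order and the microRNA sequences.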

Additional observations from a re-analysis of the deposited data

Results flagged for a closer look

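Among 117 sets of 6 treated values checked, 27 had 1 array far from the other 5 (Dixon's test at the 95% level, where chance flags about 1 in 20 sets). Most were acupoint replicate 1. On that array muscle genes were high: Tnnt3 7.36, Ttn 6.34, Atp2a1 7.82, Ckm 7.36, Acta1 8.46, Neb 5.65, Actn3 6.84, Myh1 6.33 and the mean of the muscle list 6.88. Other genes were low on it, with Wsb1 at 8.51, Hmgn5 at 6.21, Etnppl at 8.77 and Sp140 at 4.57. Mir543 at 4.498 and Mir323 at 4.67 were high on it, nearer to the control arrays than the other treated values. Several list means were low on the same array: heat shock 9.98, ribosomal protein 9.77, complex I 9.35, complexes II to V 10.19, proteasome 9.41 and detained-intron transcripts 8.55. The muscle list mean was high and these other list means were low on this 1 array, and their relation was not tested.

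Other arrays stood apart for fewer items. Lncpint was 6.47 on MPTP replicate 1, against 6.20 to 6.27 on the other treated arrays, and Cplane1 was 7.31 on MPTP replicate 2, against 7.43 to 7.49. Mir485 was 5.36 on acupoint replicate 2 and Mir541 was 2.91 on nonacupoint replicate 1. The mean of the adipocyte list was 7.89 on nonacupoint replicate 2, and that of the Hox list was 6.90 on nonacupoint replicate 1, against 7.10 to 7.21 on the other treated arrays. Outside the genes tested, 583 probe sets without a gene symbol were higher in the treated arrays.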

How the results depend on the processing

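The count of called genes was 3974 with 1 mean per group, 4589 and 4555 with filters at the 30th and 50th percentile of signal, 5196 under quantile normalization, 3981 under cyclic loess, 4102 without the intensity trend and 4799 with array weights, against 4571. Called genes were higher in 75.0% of cases, in 61.9% under cyclic loess, in 67.04% when centred on the median of the genes and in 92.6% when centred on the median of all probe sets (6013 higher, 482 lower; 7311 and 725 separated), where the median of all genes was 0.18. The filter at the 50th percentile left 1279 separated on the lower side, having tested fewer genes. Testing every probe set gave 7747 calls, 3728 of them lower. The muscle covariate left 96 (45 higher, 51 lower), and the cause was not tested.

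Leaving out 1 array gave 2118 to 6461 calls (1642 to 4633 higher, 476 to 1828 lower), 6693 to 10566 separated genes (4391 to 6364 higher, 2271 to 4202 lower) and 0 to 13 in the F-test among MPTP groups; with fewer arrays separation is easier. A lone array was assumed to vary like the others. Leaving out acupoint replicate 1 and control replicate 2 together, added after seeing the data, gave 12647 separated genes (7293 higher, 5354 lower) and 5282 calls. Against control, MPTP alone gave 722 lower, acupoint needling 140 calls (83 higher, 57 lower) and nonacupoint needling 727 lower, with 4 arrays in each fit.

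Replicate numbers did not pair the arrays: deviations of same-numbered arrays correlated between -0.29 and 0.14 over pairs of groups, and a replicate block gave 4284 calls. Of 278 genes examined singly, 7 fell short of the threshold under it, 21 under cyclic loess, 64 without control replicate 2, 39 without control replicate 1 and 208 with the muscle covariate. Under that covariate 13 changed sign: Hmgn5 to -0.037, Atp2a1 to 0.0038, Myl1 to 0.0018, Acta1 to 0.28, Myot to 0.57, Myh1 to 1.51, Oprk1 to -0.079, Ntrk3 to 0.039, Uqcrq to 0.025, Mir495 to 0.042, Mir666 to 0.18, Glra2 to -0.019 and Ncl to -0.081. Atp2a1, Myl1, Acta1, Myot and Myh1 are skeletal muscle genes. The covariate is the mean of the muscle list, so it bears on none of that list's own members in either count. The median of the splicing factor list became -0.0069 under quantile normalization, -0.060 under cyclic loess and -0.079 with the covariate. RMA values do not show which dim probe sets lie above background.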

Other observations

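Probe sets outside the comparison of genes leaned the other way from the genes. Of 12147 probe sets without a gene symbol, 583 were higher (4.80%) and 2327 lower (19.2%) in the 6 MPTP arrays, with a median difference of -0.19, and their median signal was 4.25 to 4.39 on the treated arrays, against 4.75 on each control array. Of 1621 probe sets with several symbols, 125 were higher and 168 lower, with a median of -0.041. The spread of all values, as SD over probe sets, was 2.43 to 2.50 on the treated arrays and 2.35 on each control array. Across genes, pairs of treated arrays correlated at 0.991 to 0.997, treated with control arrays at 0.986 to 0.992 and the 2 controls with each other at 0.992; these values describe the arrays and share the same genes.

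Among 675 long non-coding RNA genes, 59 were lower (8.74%) and 21 higher (3.11%), against 5.74% and 17.2% of all genes. Their median difference was -0.081, against 0.026 over all genes. Most of the 675 were not called, so a called decrease like that of Rian, Meg3, Snhg11, Malat1 and Lncpint was not shared by most genes of that kind.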
